A study of Mus musculus with 27 samples.

Results

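The YAP and TAZ genes followed here are 10 of the 53379 genes counted in hepatic stellate cells (HSCs), liver mesenchymal cells that store retinoid at rest and make matrix in fibrosis. They were taken by name: the coactivators Yap1 and Wwtr1 (which encodes TAZ), the DNA-binding partner Tead1, the target genes Ankrd1, Ccn1 and Ccn2, and the pathway regulators Amotl2, Lats2, Ajuba and Nuak2. RNA was sequenced in bulk from cells of male Balb/c mice, freshly sorted by ultraviolet fluorescence after liver perfusion, to follow HSC activation after a first liver injury, during repeated injury and in recovery. The toxin was carbon tetrachloride (CCl4), which kills hepatocytes, diluted in mineral oil and injected intraperitoneally at 0.5 µL per g of body weight.

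Of the 27 libraries, 4 came from untreated healthy mice of 10 to 12 weeks. A single injection at 10 to 12 weeks was followed by collection after 24 h (acute 24 h, n = 3), 72 h (acute 72 h, n = 4) or 7 days (acute 7 d, n = 4). Semi-weekly injections over 4 weeks, begun at 8 to 10 weeks of age, were followed by collection after 24 h (chronic 24 h, n = 4), 72 h (chronic 72 h, n = 4) or 14 days (chronic 14 d, n = 4). The healthy mice received no oil, so the effects of CCl4 and of its vehicle and injection cannot be told apart. Chronic mice were injected over 4 weeks from 8 to 10 weeks of age, so their age at collection also differed from the other mice. In comparisons of chronic groups with healthy or acute ones, repeated injury and age cannot be told apart. Nothing in the labels says whether a library is 1 animal or several, and the p-values measure the spread between libraries.

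YAP and TAZ are held in the cytoplasm when the Hippo kinases, ending with LATS1 and LATS2, phosphorylate them. When released, for example in spread cells on a stiff matrix, they enter the nucleus and bind TEAD factors, which carry them to DNA. Several of their target genes, among them Lats2, Amotl2 and Ajuba, encode proteins that act back on the pathway. In HSCs, YAP is known as a factor of activation, and its activity is set largely by phosphorylation and location, which RNA counts do not measure.

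The core letters of the TEAD binding motif, GGAATG or CATTCC on the other strand, were looked for in RefSeq promoters (GRCm38.p6), which run from 250 bases before to 50 bases after each transcription start. Promoters of 7 of the 10 genes were matched, without entries for Ccn2, Tead1 and Nuak2. All 7 genes held the 6 letters in at least 1 promoter, and 8 of their 9 promoters did. Among all 32851 promoters of this length, 14.7% held the letters, and 1.33% held them at 2 or more places, as those of Ankrd1 and Ajuba did. The windows of 30 bases around the places that lie before a start are shown, because all 7 genes with an entry held these letters. They are written 5′ to 3′ in the direction of the gene, with the motif letters in capitals.
Ankrd1, chr19:36120037-36120066, minus strand: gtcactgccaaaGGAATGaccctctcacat
Ankrd1, chr19:36119950-36119979, minus strand: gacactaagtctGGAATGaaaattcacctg
Ccn1, chr3:145650071-145650100, minus strand: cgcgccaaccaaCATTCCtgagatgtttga
Yap1, chr9:8004720-8004749, minus strand: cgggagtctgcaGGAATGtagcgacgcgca
Wwtr1, chr3:57576029-57576058, minus strand: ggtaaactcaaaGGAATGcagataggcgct
Amotl2, chr9:102717727-102717756, plus strand: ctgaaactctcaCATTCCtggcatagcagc
Ajuba, chr14:54577830-54577859, minus strand: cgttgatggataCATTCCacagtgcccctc
Ajuba, chr14:54577808-54577837, minus strand: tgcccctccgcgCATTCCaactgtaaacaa

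In Ankrd1 the letters began 210 and 123 bases before the start, in Ccn1 103 and in Amotl2 65 bases before it. Both RefSeq starts of Wwtr1 share 1 place. In Lats2 the letters lay at bases 5 to 10 after the start of 1 promoter, and its other promoter did not hold them. These matches describe letters only, and no binding was measured in these samples. The genes that carry the letters did not move as a block: as given below, Ankrd1 rose after injury while Yap1 was not called in any comparison.

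**Figure D1:**
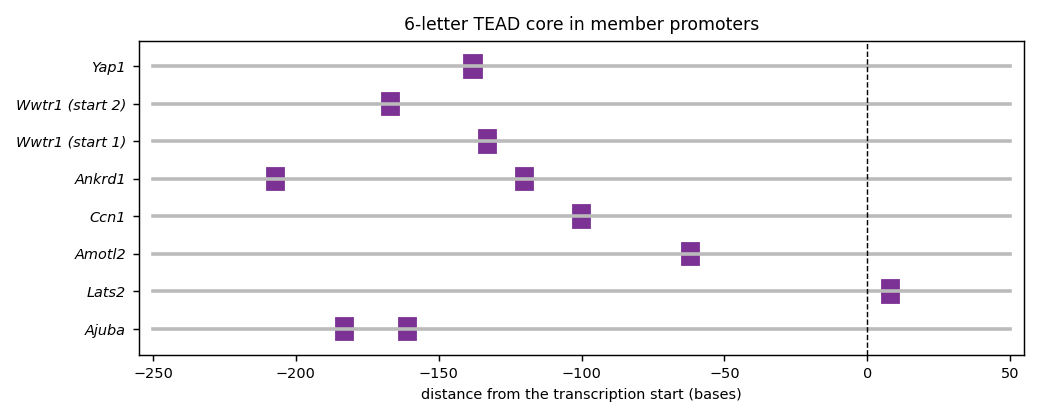
Position of the 6-letter TEAD core (purple boxes) in 8 promoters of 7 genes, in bases from the transcription start (dashed line). In all but Lats2 the core lies before the start, and Ankrd1 and Ajuba hold 2 each; the Lats2 promoter without the core is not drawn.

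Libraries held 6.31 M to 13.1 M counts in genes. They fell into 8 of lower depth, at most 7.58 M (chronic 24 h replicates 1 and 2, chronic 72 h replicates 1 and 2, and all of chronic 14 d), and 19 of at least 10.8 M. At chronic 24 h and 72 h the depth classes are thus replicates 1 and 2 against 3 and 4. Depth cannot be told apart there from anything else these replicates share. At acute 72 h, all of higher depth, replicates 1 and 2 differed with 35.9 times the variance of counting error. Replicates 3 and 4 differed with 24.0 times it, and pairs across with 63.6 to 77.2 times it. Levels are given in CPM (counts-per-million) on library sizes scaled by TMM (trimmed mean of M values). A gene was called higher or lower at an edgeR quasi-likelihood adjusted p (Benjamini-Hochberg over 18758 genes) below 0.05 together with a change above 2-fold, and errors of log2 fold changes are standard errors. The 9 stellate cell markers, Lrat and Reln among them, had counts in every library and summed to 17852 to 24625 CPM in healthy libraries and to 7131 to 15752 CPM after injury. Ecm1 held the most counts, 1137459 over all libraries, and Lrat was next with 413278. Against healthy, 4 of the 9 were called lower and 0 higher at acute 24 h (12.5% and 9.41% of all genes). At chronic 24 h 4 were lower and 1 higher (8.11% and 11.2%), and at chronic 14 d 1 was lower and 0 higher (1.17% and 4.55%). At acute 72 h, acute 7 d and chronic 72 h, 3, 4 and 5 were lower and 0 higher in each. The shares over all genes there were 4.33%, 5.64% and 4.2% lower and 8.23%, 9.23% and 7.88% higher. In bulk libraries fewer cells of a type and less RNA per cell cannot be told apart.

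Neither coactivator gene was called in any comparison with all libraries in the fit. Yap1 lay between 33.1 and 71.8 CPM in all 27 libraries and passed the call in none of the 10 comparisons between groups. Its healthy libraries held 48.5, 57.0, 52.7 and 53.4 CPM. The acute 24 h libraries held 39.7, 47.7 and 59.6 CPM and the chronic 24 h libraries 33.1, 39.1, 63.8 and 48.1 CPM. Both ranges enclose or overlap the healthy one, and the log2 fold changes were -0.11 ± 0.22 (edgeR adjusted p = 0.74) and -0.20 ± 0.20 (edgeR adjusted p = 0.48). At acute 7 d (47.6, 42.0, 36.9 and 41.8 CPM) and chronic 72 h (45.7, 37.9, 45.7 and 40.6 CPM) all libraries lay below all healthy ones, at -0.33 ± 0.20 (edgeR adjusted p = 0.25) and -0.32 ± 0.20 (edgeR adjusted p = 0.28).

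Wwtr1 was the more abundant of the pair. Healthy libraries held 92.5, 109, 115 and 138 CPM, acute 24 h libraries 162, 144 and 155 CPM, and chronic 24 h libraries 129, 128, 235 and 220 CPM. All acute 24 h libraries lay above all healthy ones, whereas the chronic 24 h group overlapped them. The log2 fold changes were 0.44 ± 0.23 (edgeR adjusted p = 0.15) and 0.65 ± 0.21 (edgeR adjusted p = 0.024), neither above 2-fold. Among higher-depth libraries alone the chronic 24 h difference was 1.01 (edgeR adjusted p = 0.00023), which is a call.

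Measured per length, in TPM (transcripts-per-million) over summed exon length, Yap1 averaged 14.3 ± 0.80 (SD, n = 4) and Wwtr1 59.7 ± 11.5 in healthy HSCs. The ratio of Wwtr1 to Yap1 in TPM was 3.69 to 5.0 in healthy libraries. It was 5.04 to 7.89 in acute 24 h, 5.98 to 6.54 in acute 72 h, 5.07 to 7.33 in acute 7 d and 6.33 to 8.84 in chronic 24 h libraries. None of these 4 groups overlapped the healthy range, while chronic 72 h (4.55 to 6.79) and chronic 14 d (4.35 to 5.78) did. The ratio was looked at as a description, with no test.

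Tead1, a DNA-binding partner of both coactivators, varied widely within groups. Its healthy libraries held 91.6, 76.4, 107 and 11.6 CPM, so replicate 4 stood far below the other healthy libraries. Acute 7 d libraries held 32.4, 69.7, 11.6 and 20.5 CPM and chronic 14 d libraries 35.0, 28.2, 36.1 and 50.1 CPM. The log2 fold changes against healthy were -1.10 ± 0.52 (edgeR adjusted p = 0.13) and -0.94 ± 0.52 (edgeR adjusted p = 0.29). Without healthy replicate 4 the acute 7 d difference was -1.45 (edgeR adjusted p = 0.02), and without acute 7 d replicate 2 it was -1.74 (edgeR adjusted p = 0.024), both past the call. The lncRNA 2310014F06Rik, on the opposite strand, overlaps Tead1 and held 1320 counts against 16041 for Tead1 over all libraries, and the strand used in counting is not stated.

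Of the other TEAD genes, Tead3 rose at 24 h after both injuries. It held 3.64 to 16.8 CPM in healthy, 27.6 to 32.7 in acute 24 h and 25.7 to 31.0 in chronic 24 h libraries, without overlap with healthy. Tead3 rose by 1.45 ± 0.29 (edgeR adjusted p = 0.00044) and by 1.33 ± 0.27 (edgeR adjusted p = 0.00067). Vgll3, a cofactor that binds TEAD proteins, rose more: healthy libraries held 1.99, 5.27, 8.43 and 2.86 CPM, acute 24 h libraries 19.8, 10.3 and 15.3 CPM and chronic 24 h libraries 38.8, 74.8, 133 and 88.3 CPM. Its log2 fold changes were 1.70 ± 0.40 (edgeR adjusted p = 0.0021) and 4.17 ± 0.42 (edgeR adjusted p = 8.6e-08), and chronic 24 h stood above acute 24 h by 2.47 ± 0.43 (edgeR adjusted p = 0.0002). Vgll3 was still higher than healthy at chronic 14 d, by 2.20 ± 0.39 (edgeR adjusted p = 0.00088). Tead2, Tead4 and Vgll4 were not called at 24 h after either injury.

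Of the 10 genes, the target genes Ankrd1 and Ccn2 had the largest log2 fold changes against healthy at 24 h after both injuries. At acute 24 h, 3 of the 10 genes were higher and 1 was lower, where 9.41% of all genes tested were called higher and 12.5% lower. At chronic 24 h, 4 were higher and none lower, where 11.2% and 8.11% of all genes were called. The median log2 fold change of the 10 genes was 0.07 at acute 24 h and 0.40 at chronic 24 h, beside -0.12 and -0.03 for all genes tested. These comparisons, and all others against healthy, share the same 4 healthy libraries.

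**Figure D2:**
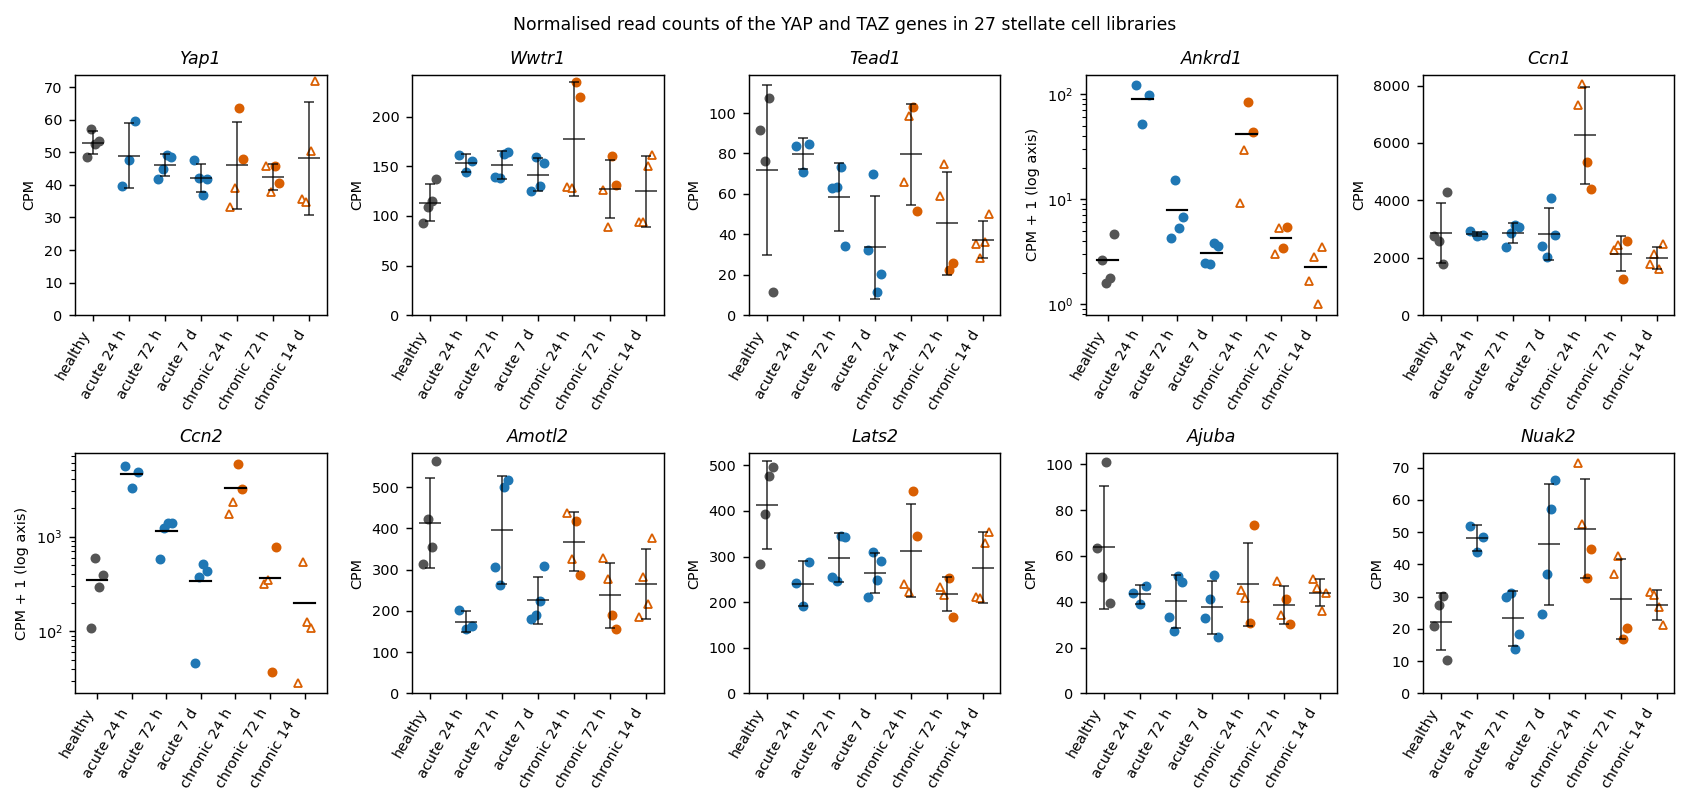
CPM of the 10 genes in each library by group, with the mean and, on linear axes, the SD; Ankrd1 and Ccn2 are drawn as CPM + 1 on log axes with the mean only. Filled circles are libraries of at least 10.8 M counts and open triangles those of lower depth. Ankrd1 and Ccn2 peak in both 24 h groups, Ccn1 stands apart only in chronic 24 h, and Yap1 stays between 33.1 and 71.8 CPM.

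Ankrd1 encodes a small ankyrin-repeat protein of muscle and activated mesenchymal cells. It was near its floor in healthy HSCs, with 1.63, 0.585, 0.758 and 3.64 CPM, or 18, 6, 9 and 42 counts. Acute 24 h libraries held 120, 51.0 and 96.0 CPM, and chronic 24 h libraries 8.24, 28.4, 83.8 and 42.7 CPM. Both 24 h groups lay above every healthy library. Against healthy, Ankrd1 rose by 5.73 ± 0.79 (edgeR adjusted p = 8.2e-06) at acute 24 h and by 4.61 ± 0.75 (edgeR adjusted p = 5.1e-05) at chronic 24 h, on the log2 scale. Without healthy replicate 4, the highest healthy library, these were 6.47 and 5.35, and without chronic 24 h replicate 3 the latter was 3.99, all still called. The chronic 24 h libraries of lower depth (8.24 and 28.4 CPM) lay below those of higher depth (83.8 and 42.7 CPM), and the difference from healthy was 5.24 with higher-depth libraries only and 4.92 with depth class as a term. The part of depth was not tested. The difference between chronic 24 h and acute 24 h, -1.12 ± 0.66, was not called (edgeR adjusted p = 0.25).

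By 72 h Ankrd1 had fallen in both courses. Acute 72 h libraries held 3.28, 14.2, 4.31 and 5.81 CPM and chronic 72 h libraries 2.0, 4.29, 2.41 and 4.47 CPM, all below the 24 h libraries of the same course. The steps were -3.69 ± 0.71 (edgeR adjusted p = 0.00056) after the single injection and -3.63 ± 0.71 (edgeR adjusted p = 0.001) after repeated ones, and their difference was 0.06 ± 0.99 (edgeR adjusted p = 1.0). Without acute 72 h replicate 2 the acute step was -4.31, and without chronic 24 h replicate 3 the chronic step was -3.01, both still called. Against healthy, Ankrd1 was the only gene of the set called at acute 72 h, at 2.04 ± 0.70 (edgeR adjusted p = 0.039), where 8.23% of all genes were called higher and 4.33% lower. That call was lost without healthy replicate 1, 2 or 3 (2.04, 1.77 and 1.80) or acute 72 h replicate 2 or 4 (1.42 and 2.13), and held without healthy replicate 4 (2.78). At chronic 14 d the libraries held 0.675, 1.84, 0 and 2.50 CPM, the library at 0 allowing up to 0.361 CPM (3 counts), and the fall from chronic 24 h was -5.05 ± 0.79 (edgeR adjusted p = 7e-05), or -4.42 without chronic 24 h replicate 3.

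Ccn2 encodes connective tissue growth factor, a secreted matricellular protein of fibrotic tissue. Healthy libraries held 108, 595, 293 and 396 CPM. Acute 24 h libraries held 5505, 3241 and 4819 CPM and chronic 24 h libraries 1721, 2331, 5854 and 3165 CPM, all above the healthy libraries. Ccn2 rose by 3.70 ± 0.89 (edgeR adjusted p = 0.0025) at acute 24 h and by 3.23 ± 0.85 (edgeR adjusted p = 0.0055) at chronic 24 h. Among libraries of higher depth, the chronic 24 h difference was 3.71 (edgeR adjusted p = 0.007).

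After the peak, Ccn2 was 582, 1224, 1373 and 1383 CPM at acute 72 h and 311, 348, 35.8 and 766 CPM at chronic 72 h. No library of either group reached the 24 h level of its course. The acute step was -1.99 ± 0.85 and not called (edgeR adjusted p = 0.096). It was called with the replicate block (-2.43, edgeR adjusted p = 0.035), in a fit of only the groups compared (-2.05, edgeR adjusted p = 0.0047) and by DESeq2 (adjusted p = 0.038). The chronic step was -3.16 ± 0.85 and called (edgeR adjusted p = 0.013), and it was -3.82 without chronic 72 h replicate 4. The difference between the steps was -1.17 ± 1.16 (edgeR adjusted p = 0.6), so the courses were not shown to differ. Between the higher-depth libraries alone the chronic step was -3.46 and lost its call (edgeR adjusted p = 0.081). From chronic 24 h to chronic 14 d Ccn2 fell by 4.03 ± 0.88 on the log2 scale (edgeR adjusted p = 0.002), to 27.8, 542, 124 and 107 CPM. Without chronic 14 d replicate 2, the highest of these, the difference was -5.19. The overlapping transcript Gm15270 held 3731 counts against 397798 for Ccn2.

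Ccn1, which encodes the related matricellular protein CYR61, behaved differently from Ccn2. It was already abundant in healthy HSCs, at 2760, 2597, 1776 and 4286 CPM, and acute 24 h libraries held 2917, 2772 and 2806 CPM, within the healthy range. Chronic 24 h libraries held 7310, 8043, 5333 and 4409 CPM, all above every healthy and every acute 24 h library. The log2 fold change of acute 24 h against healthy was -0.01 ± 0.28 (edgeR adjusted p = 0.99). At chronic 24 h Ccn1 rose by 1.14 ± 0.26 against healthy (edgeR adjusted p = 0.002) and by 1.15 ± 0.29 against acute 24 h (edgeR adjusted p = 0.0062). In the latter comparison 2 of the 10 genes were higher and none lower, where 10.9% of all genes were called higher and 3.05% lower.

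The Ccn1 difference moved with depth class, which at chronic 24 h is also replicates 1 and 2 against 3 and 4. The 2 chronic 24 h libraries of lower depth held 7310 and 8043 CPM and the 2 of higher depth 5333 and 4409 CPM. With higher-depth libraries only, the differences were 0.78 from healthy (edgeR adjusted p = 0.091) and 0.75 from acute 24 h (edgeR adjusted p = 0.16). With depth class as a term they were 0.86 (edgeR adjusted p = 0.021) and 0.88 (edgeR adjusted p = 0.042), both under 2-fold. The call against healthy was also lost without healthy replicate 3 (0.96) or chronic 24 h replicate 2 (0.99). The part of depth in these values was not tested.

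Per length, Ccn1 stood far above Ccn2 in healthy HSCs, at 3569 ± 1420 (SD, n = 4) against 302 ± 169 TPM. The ratio of Ccn1 to Ccn2 in TPM was 6.18 to 36.1 in healthy libraries, 0.751 to 1.21 at acute 24 h and 1.29 to 6.02 at chronic 24 h. At acute 24 h Ccn2 thus reached the level of Ccn1, with 3751 ± 1015 against 3318 ± 146 TPM (SD, n = 3). Both 24 h groups lay below all healthy libraries in this ratio. So did acute 72 h (3.16 to 5.75), whereas acute 7 d, chronic 72 h and chronic 14 d overlapped the healthy libraries.

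From chronic 24 h to chronic 72 h, Ankrd1, Ccn1 and Ccn2 were the 3 genes of the set called, all lower, where 3.65% of all genes were called lower and 4.72% higher. Ccn1 fell by 1.55 ± 0.27 on the log2 scale (edgeR adjusted p = 0.0003), to 2258, 2449, 1247 and 2595 CPM, no library of which reached the chronic 24 h range. The same 3 genes were called lower between chronic 24 h and chronic 14 d, where 6.11% of all genes were called lower and 6.65% higher. Ccn1 was then at 1797, 2122, 1593 and 2468 CPM, a fall of 1.65 ± 0.27 (edgeR adjusted p = 0.0001). These 2 comparisons share the chronic 24 h libraries. Against healthy, 0 of the 10 genes were called at chronic 72 h (7.88% of all genes higher, 4.2% lower) or at chronic 14 d (4.55% higher, 1.17% lower) by edgeR, and DESeq2 also called 0 in each. At an unadjusted p below 0.05 edgeR gave 3 and 2 of them.

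**Figure D3:**
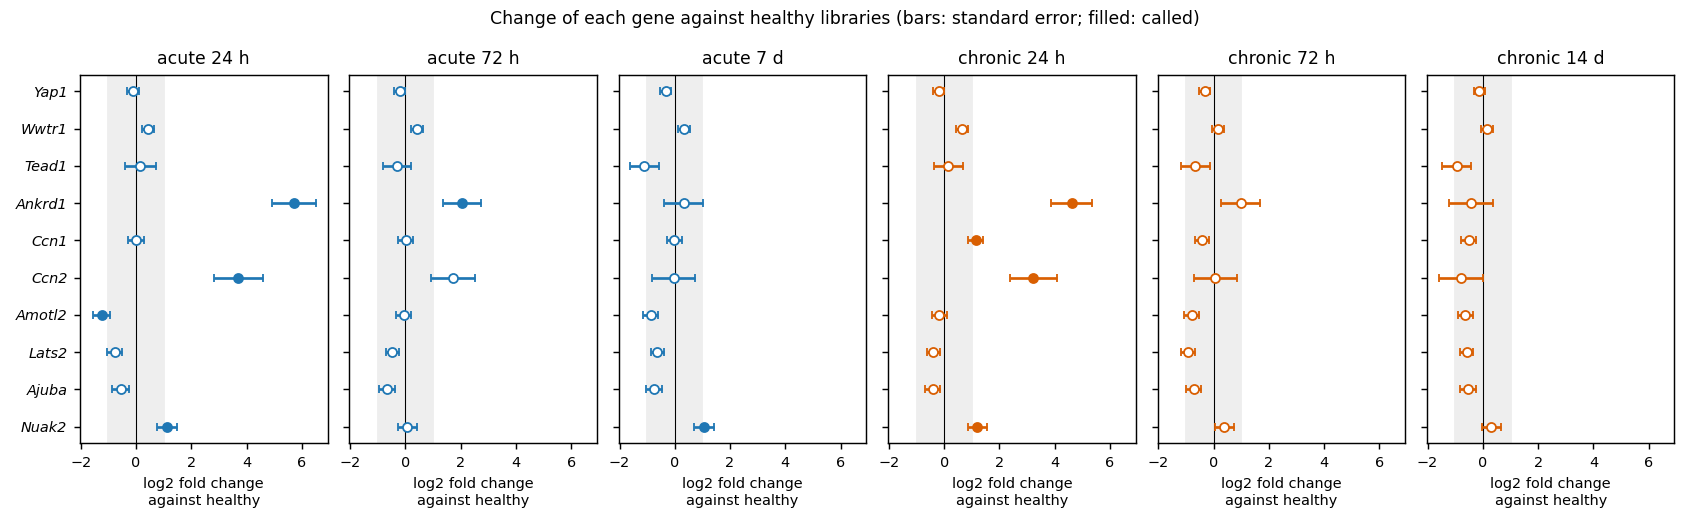
Log2 fold change (± standard error) of each gene against healthy libraries in the 6 injured groups; filled points are called and the grey band marks changes under 2-fold. Ankrd1 and Ccn2 lie farthest to the right at 24 h in both courses, Amotl2 is called lower at acute 24 h only, and no point is filled at chronic 72 h or 14 d.

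Among the regulators, Amotl2 changed in the opposite direction to Ankrd1 and Ccn2 after the first injury. Amotl2, an angiomotin-like protein, binds YAP and TAZ and promotes their retention outside the nucleus. Healthy libraries held 314, 423, 354 and 563 CPM and acute 24 h libraries 203, 156 and 164 CPM, without overlap. The log2 fold change was -1.25 ± 0.30 (edgeR adjusted p = 0.0025). At chronic 24 h the libraries held 436, 327, 418 and 288 CPM, within or just below the healthy range, at a difference of -0.17 ± 0.27 (edgeR adjusted p = 0.67).

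Chronic 24 h libraries all stood above acute 24 h libraries in Amotl2, by 1.08 ± 0.30 (edgeR adjusted p = 0.012). That call was lost without acute 24 h replicate 2 (edgeR adjusted p = 0.062) or chronic 24 h replicate 1 (0.98, under 2-fold), and with higher-depth libraries alone (0.98) or depth as a term (0.86, edgeR adjusted p = 0.051). By acute 72 h Amotl2 was back at 306, 264, 501 and 517 CPM, a rise of 1.19 ± 0.30 from acute 24 h (edgeR adjusted p = 0.0054) that fell just under 2-fold without acute 72 h replicate 3 (0.98) or 4 (0.97). Ankrd1 and Nuak2 fell over the same interval, so that 1 of the 10 genes was higher and 2 were lower, where 11.2% of all genes were called higher and 3.76% lower.

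The step from 24 h to 72 h was compared directly between the courses. It differed for Amotl2, by -1.81 ± 0.40 (chronic minus acute, edgeR adjusted p = 0.0048), and for Ccn1, by -1.57 ± 0.39 (edgeR adjusted p = 0.01). Across all genes 6.46% were called lower and 2.28% higher in this contrast. Amotl2 went up from 24 h to 72 h after a single injection and stood at 329, 277, 191 and 157 CPM at chronic 72 h, a difference of -0.62 ± 0.27 from chronic 24 h that was not called (edgeR adjusted p = 0.12). With higher-depth libraries only, the Ccn1 difference was -1.28 and not called (edgeR adjusted p = 0.14), and Amotl2 was the 1 gene of the set still called.

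Lats2, one of the kinases that phosphorylate YAP and TAZ, had its highest mean in healthy HSCs, whose libraries held 284, 394, 477 and 497 CPM. It held 243, 191 and 288 CPM at acute 24 h and 234, 216, 254 and 167 CPM at chronic 72 h, the latter all below healthy. The log2 fold changes were -0.78 ± 0.26 (edgeR adjusted p = 0.022) and -0.92 ± 0.24 (edgeR adjusted p = 0.007), both under 2-fold. Without healthy replicate 1, which was the lowest healthy library, the chronic 72 h difference was -1.07 (edgeR adjusted p = 0.0033), a call. Ajuba, a LIM protein that restrains LATS kinases, lay between 24.7 and 101 CPM and was not called in any comparison. Its highest library was healthy replicate 3 (101 CPM), beside 63.6, 50.6 and 39.5 CPM in the other healthy libraries, and the differences from healthy ran from -0.42 ± 0.28 at chronic 24 h to -0.76 ± 0.28 at acute 7 d (edgeR adjusted p = 0.28 and 0.053).

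Nuak2, a kinase of the AMPK family and a YAP target gene, rose at 24 h after both injuries. Healthy libraries held 21, 27.3, 30.2 and 10.3 CPM, acute 24 h libraries 52.0, 43.9 and 48.4 CPM and chronic 24 h libraries 71.5, 52.4, 35.8 and 44.6 CPM. Neither 24 h group overlapped the healthy libraries. The log2 fold changes were 1.11 ± 0.37 (edgeR adjusted p = 0.022) and 1.2 ± 0.35 (edgeR adjusted p = 0.011). Without healthy replicate 4, the lowest, they were 0.88 and 0.96, neither a call. The acute call was also lost without acute 24 h replicate 1 (1.06) or 3 (1.11), and the chronic one without chronic 24 h replicate 1 (0.99), among higher-depth libraries (0.87, edgeR adjusted p = 0.13) and with depth as a term (0.75).

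At acute 7 d Nuak2 held 24.7, 36.9, 57.1 and 66.1 CPM and was the 1 gene of the set called, higher by 1.06 ± 0.35 (edgeR adjusted p = 0.03), where 9.23% of all genes were called higher and 5.64% lower. That call was lost without healthy replicate 1 or 4 (1.03 and 0.82) or acute 7 d replicate 3 or 4 (0.94 and 0.83). In between, at acute 72 h, Nuak2 held 29.8, 31.1, 13.9 and 18.4 CPM, lower than acute 24 h by a log2 value of -1.05 ± 0.37 (edgeR adjusted p = 0.043), and this call was lost without any 1 of the 3 acute 24 h libraries (-0.99 to -1.11) and without acute 72 h replicate 3 or 4 (edgeR adjusted p = 0.11 and 0.095). At acute 7 d Amotl2 held 182, 191, 224 and 308 CPM, all below healthy, at -0.87 ± 0.27 (edgeR adjusted p = 0.022), under 2-fold, and without acute 7 d replicate 4 it passed at -1.06.

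The order of the group means differed between genes. Ccn1 was highest at chronic 24 h, with no overlap with the next group, and Ccn2 at acute 24 h followed by chronic 24 h, the latter apart from acute 72 h. For the other 8 genes, every pair of neighbours in the order overlapped. Wwtr1 and Nuak2 had their lowest mean in healthy libraries, whereas Yap1, Amotl2, Lats2 and Ajuba had their highest mean there.

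Other genes known as YAP and TAZ targets were looked at as a list of 15, of which 14 could be tested (Foxf2 held 3 counts in all). At acute 24 h 5 were higher and 1 lower, where 9.41% of all genes were called higher and 12.5% lower. At chronic 24 h 7 were higher and 3 lower, where the shares over all genes were 11.2% and 8.11%. In the order acute 72 h, acute 7 d, chronic 72 h and chronic 14 d, 5, 5, 6 and 3 were higher and 2, 3, 2 and 1 lower. Over all genes 8.23%, 9.23%, 7.88% and 4.55% were higher and 4.33%, 5.64%, 4.2% and 1.17% lower in these groups. The median log2 fold change of the list was 0.42 at acute 24 h and 0.76 at chronic 24 h, beside -0.12 and -0.03 for all genes tested.

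**Figure D4:**
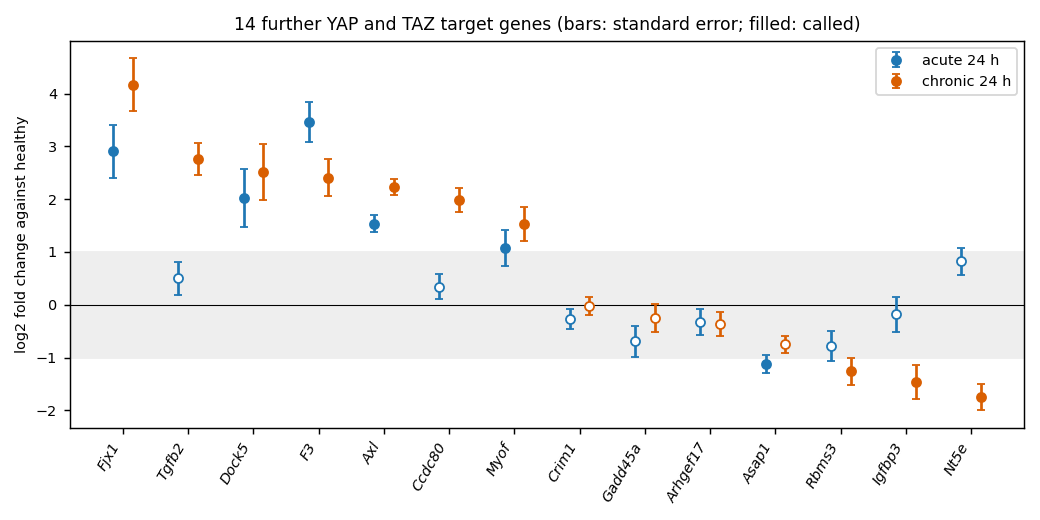
Log2 fold change (± standard error) against healthy of 14 further YAP and TAZ target genes at acute 24 h and chronic 24 h; filled points are called and the grey band marks changes under 2-fold. Fjx1, F3, Dock5, Axl and Myof are called higher in both groups, and Tgfb2 and Ccdc80 only at chronic 24 h. Called lower are 1 gene at acute 24 h and 3 at chronic 24 h. Dock5 rests on 530 counts over all libraries, at most 3.43 CPM.

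Within that list Fjx1, F3 and Tgfb2 had the largest changes. Fjx1, a secreted Golgi kinase, rose by 2.90 ± 0.50 at acute 24 h (edgeR adjusted p = 9.7e-05) and 4.17 ± 0.50 at chronic 24 h (edgeR adjusted p = 1.1e-06), from 0.421 to 1.47 CPM in healthy to 4.83 to 7.57 and 9.74 to 19.1 CPM. F3, tissue factor, rose by 3.47 ± 0.38 (edgeR adjusted p = 3.8e-07) and 2.41 ± 0.35 (edgeR adjusted p = 1.3e-05), and was lower at chronic 24 h than at acute 24 h by -1.06 ± 0.35 (edgeR adjusted p = 0.034). Tgfb2, a transforming growth factor beta ligand, stood at 2.60 to 7.84 CPM in healthy, 8.01 to 8.33 CPM in acute 24 h and 21.7 to 50.1 CPM in chronic 24 h libraries. Its difference from healthy was 0.50 ± 0.31 at acute 24 h (edgeR adjusted p = 0.23) and 2.76 ± 0.30 at chronic 24 h (edgeR adjusted p = 3.2e-07), and chronic 24 h exceeded acute 24 h by 2.25 ± 0.33 (edgeR adjusted p = 3.4e-05).

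Of the 13 Hippo kinases and scaffolds, 1 was higher at acute 24 h and 1 lower at chronic 24 h, where 9.41% of all genes were called higher and 8.11% lower. Map4k4, a kinase that acts on LATS1 and LATS2, rose from 23.5 to 48.7 CPM in healthy to 107 to 178 CPM at acute 24 h, by 1.90 ± 0.21 (edgeR adjusted p = 4.1e-07), and was 50.5 to 63.9 CPM at chronic 24 h (0.44 ± 0.19, edgeR adjusted p = 0.085). Wwc2, a scaffold of the KIBRA family, fell by 1.07 ± 0.24 at chronic 24 h (edgeR adjusted p = 0.0016). Its chronic 24 h libraries, at 110 to 162 CPM, overlapped the healthy ones, at 142 to 399 CPM. It was also low at acute 24 h, at 117 to 167 CPM, but not called there. Of 8 binding and upstream regulators, 2 were lower at acute 24 h (12.5% of all genes), and 1 was higher and 1 lower at chronic 24 h (11.2% and 8.11% of all genes). The giant cadherin Fat1 rose at chronic 24 h, by 1.81 ± 0.30 (edgeR adjusted p = 5.4e-05), while Dchs1, a ligand of the cadherin Fat4, fell by 1.32 ± 0.30 (edgeR adjusted p = 0.0014). Fat4 was lower at acute 24 h, by -2.20 ± 0.54 (edgeR adjusted p = 0.0026), at levels of 0.351 to 1.22 CPM against 1.47 to 5.46 CPM.

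Markers of other cells were looked at as lists in the same libraries. Over all genes, 9.41% were called higher and 12.5% lower at acute 24 h, and 11.2% and 8.11% at chronic 24 h. At chronic 24 h, 2 of 3 vascular smooth muscle markers were higher, their sum being 13.2 to 110 CPM against 3.55 to 11.4 CPM in healthy and 4.51 to 9.79 CPM in acute 24 h libraries; Actg2 was at 0 in 20 of the 27 libraries and Pln in 10. Macrophage markers were higher for 5 of 7 genes at chronic 24 h, at 423 to 3006 CPM against 113 to 456 CPM in healthy, and lower for 3 of 7 at acute 24 h. Their sum was highest at acute 7 d, at 3876 to 9898 CPM, with 6 of 7 higher (9.23% of all genes). At chronic 72 h it was 801 to 2065 CPM, with 5 of 7 higher (7.88% of all genes). Lyz2 held most counts of that list, 384767 over all libraries, and Clec4f was next with 41794. Hepatocyte markers were lower for 7 of 7 at acute 24 h, at 16.6 to 193 CPM against 394 to 2342 CPM. At chronic 72 h they summed to 1539 to 2912 CPM, with 1 of 7 higher (7.88% of all genes). Mesothelial markers summed to 55.2 to 111 CPM at chronic 24 h and 7.55 to 12.5 CPM at acute 24 h, against 6.07 to 14.8 CPM in healthy libraries. Of the 4 tested, 1 was higher at chronic 24 h, and 1 was higher and 1 lower at acute 24 h. Most counts of that list were of Wt1 (12018 over all libraries, beside 46 to 1385 for each of the others). Sinusoidal endothelial markers were lower for 4 of 7 genes in both 24 h groups and higher for 1 of 7 at acute 24 h, with sums of 53.1 to 71.9 CPM at acute 24 h and 40.5 to 126 CPM at chronic 24 h against 98.5 to 313 CPM in healthy. Portal fibroblast markers were lower for 2 of 3 at acute 24 h (32.8 to 43.5 CPM) and higher for 1 of 3 at chronic 24 h (166 to 231 CPM), both apart from healthy (72.5 to 142 CPM). Most counts of that list were of Eln (55993 over all libraries, beside 3806 for Entpd2 and 754 for Thy1). Of 3 neutrophil markers, the 2 tested were higher in both groups, with sums of 2.02 to 13.3 and 8.95 to 25.9 CPM against 0 to 1.63 CPM. Cholangiocyte markers were higher for 1 of 4 genes at chronic 24 h, where they summed to 26.8 to 46.2 CPM against 4.08 to 20.8 CPM. Sox9 held most counts of that list, 8279 over all libraries, and Krt19 was next with 442, so the sum mainly follows Sox9. Immediate early genes, which respond to cell isolation, were called for 0 of 9 genes at acute 24 h and 1 of 9 at chronic 24 h, with sums of 35139 to 51893 and 37056 to 38440 CPM beside 39242 to 51498 CPM in healthy; at an unadjusted p below 0.05 edgeR gave 3 of them at acute 24 h and 5 at chronic 24 h. Their part in the results was not tested.

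Genes whose log2 CPM followed a member most closely over the 27 libraries were sought among 10293 genes. For Ankrd1 they were Rpl36al (r = 0.945) and the processed pseudogenes Gm7334 (r = 0.944) and Rpl36a-ps3 (r = 0.942), which may share reads with one another. For Ccn2 they were the lincRNA Gm27194 (r = 0.876), Tnfrsf12a, the receptor of the cytokine TWEAK (r = 0.872), and the pseudogene Gm12435 (r = 0.861). For Yap1 they were Sp3 (r = 0.842), Taf4 (r = 0.819) and Cdc73 (r = 0.797). For Tead1, chosen after its values were seen, they were the long genes Dst (r = 0.788), Lyst (r = 0.787) and Golgb1 (r = 0.784). The points share the libraries, their depth and the 7 groups, so these values are descriptions.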

How the data were processed

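Reads were quality controlled with FastQC and trimmed by the authors, who mapped them to GRCm38.p6 using STAR and ran StringTie, according to the methods and labels. The deposited table holds the authors' raw counts per Ensembl gene as whole numbers, not normalized. Tool versions, counting strand and the step from StringTie to counts are not given in the sources used here. Exon lengths came from GENCODE M21. Symbols came from a list of gene names, or from M21 where that list held none. Together these sources cover 53274 of the 53379 gene IDs.

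The tests used edgeR 4.0.16 under R 4.3.3. Filtering by filterByExpr on the groups kept 18758 genes, all 10 members among them. After TMM scaling, all 27 libraries (6.31 M to 13.1 M counts) entered 1 robust quasi-likelihood fit with group means as coefficients. A call required a change of more than 2-fold and a p below 0.05 after Benjamini-Hochberg adjustment. Log2 CPM for likeness used a prior count of 2 and genes of mean log2 CPM of at least 3. TPM served only to compare levels between genes. Replicate pairs of a group differed with 17.0 to 90.1 times the variance of counting error, so none was taken for a repeat deposit of 1 library. Floors from counts cover counting error only.

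The members and lists were chosen with earlier results of these data known. The genes named are the 10 members and, from each Hippo pathway list, at most 3 with the largest change among those called at acute or chronic 24 h against healthy. For likeness, the 3 genes of highest Pearson correlation were named for Ankrd1, Ccn2 and Yap1. As alternatives, DESeq2 1.42.0 supplied its own test and, separately, its size factors. Others were library size alone, no filter, a mean of at least 1 CPM, the replicate number as a block, depth class as a term, higher-depth libraries only, a fit limited to the compared groups, a threshold of 0.1, no minimum on the fold, and each library left out. The procedure was tested on simulated counts with changes well above 2-fold and no effect of depth class. That test therefore does not bear on calls near 2-fold or on the part of depth. Figures were drawn with matplotlib 3.10.9.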

Additional observations from a re-analysis of the deposited data

Results flagged for a closer look

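Within groups of 4 libraries, 3 of the 60 sets of values examined held a library far from the other 3 on the log2 scale. The sets share libraries, so this number cannot be set against chance. In Ccn2, acute 72 h replicate 1 stood at 582 CPM beside 1224 to 1383 CPM, and acute 7 d replicate 1 at 45.3 CPM beside 370 to 513 CPM. In Tead1, healthy replicate 4 stood at 11.6 CPM beside 76.4 to 107 CPM. This library also stood apart across genes. It differed from the other healthy libraries with 73.3 to 90.1 times the variance of counting error. Those differed among themselves with 31.6 to 50.1 times it. Every comparison with healthy uses this library.

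The step from 24 h to 72 h differed between repeated and single injury for Ccn1, by -1.57 on the log2 scale (edgeR adjusted p = 0.01), and for Amotl2, by -1.81 (edgeR adjusted p = 0.0048), both by a direct test of the difference. For Ccn1 the chronic step was a fall and the acute step 0.02, and for Amotl2 the acute step was a rise of 1.19.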

How the results depend on the processing

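Of 2110 values of the 10 genes under alternatives, 2050 kept their side of the threshold, 41 lost a call and 19 gained one. No called value turned in direction, and 120 uncalled values changed sign, at most 0.61 in size. Of 211 counts of called members, 188 stayed within 1.5 times. Without a filter on low counts 0 members were called at acute 72 h against healthy. With depth class as a term the counts were 2 at chronic 24 h and 1 at chronic 72 h against healthy, and 0 for chronic 24 h against acute 24 h. With higher-depth libraries only they were 1 at chronic 72 h, 0 for chronic 24 h against acute 24 h and 1 for the difference between the steps. In a fit of only the groups compared 0 were called at acute 7 d, and with no fold minimum 2 at acute 7 d and 2 at chronic 72 h. The cause was not tested for any of these. Leaving out 1 library gave 3 to 4 called at acute 24 h, 0 to 1 at acute 72 h, 0 to 2 at acute 7 d, 3 to 4 at chronic 24 h and 0 to 1 at chronic 72 h against healthy, 1 to 3 for acute 72 h against acute 24 h and 1 to 2 for chronic 24 h against acute 24 h. With library size alone the median of all genes moved by at most 0.17 on the log2 scale. It moved the share of higher among all called genes from 79.6% to 91.2% at chronic 14 d against healthy, and from 56.4% to 67.1% and 52.1% to 67.2% at chronic 72 h and 14 d against chronic 24 h. With depth class as a term the share at chronic 14 d against healthy was 57.1%, of 748 called genes beside 1073; all chronic 14 d libraries are of lower depth.

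Same-numbered libraries correlated at -0.17 to 0.16 in their deviations from the group means, so the numbers were not taken as pairs. With the replicate block 3 members were still called between acute 72 h and acute 24 h, but Ccn2 gained a call (-2.43, edgeR adjusted p = 0.035) and Nuak2 lost its call (-1.01, edgeR adjusted p = 0.056). Ankrd1 rested on few counts, 6 to 42 per healthy and 0 to 17 per chronic 14 d library.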
